A study of Leucocroton havanensis with 4 samples.

Results

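A set of 33 contigs, out of 65936 counted in Leucocroton havanensis, preferred root in plantlets grown without nickel and stood at least 4-fold higher in shoot with nickel than in shoot without nickel. The set was chosen by measured values in all 4 libraries of the study. Levels are CPM, that is, the read count of a contig scaled to a library total of 1000000, and 0.1 CPM was added to both levels before every ratio. A contig entered the set on 4 conditions. Its mean over the shoot libraries was at least 10 CPM, and its ratio of shoot with nickel to shoot without nickel was at least 4. Without nickel, its level in root was at least 4 and under 100 times that in shoot. Its ratio of root with nickel to root without nickel lay above 0.5 and below 2, called a steady root level here. Because these conditions fixed 3 of the ratios among the 4 libraries, the values below describe the set and test nothing.

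The groups were shoot with nickel, shoot without nickel, root with nickel and root without nickel, each of them 1 RNA-seq library from plantlets kept in vitro on a solid medium until 6 weeks after germination. A concentration of 500 mg/L NiSO4 is given for the medium in a protocol worded alike for every sample, and it is taken here to apply to the nickel groups. The sources used here do not give the number of plantlets behind a library. The shoot library with nickel is labelled as re-analysed from an earlier series, and the others carry no such label, so every shoot comparison sets nickel and the origin of the library against each other at once, and these cannot be told apart. With nickel, organ and library origin likewise coincide in every ratio of shoot to root, so the organ balance with nickel carries the same limit. The shoot libraries held 98108920 counts with nickel and 84917997 without, and the root libraries held 55660570 with nickel and 59802565 without. No difference had a replicate check, and the exact 95% intervals below cover counting error only. In bulk samples such as these, fewer cells of a type and less RNA per cell cannot be told apart.

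Leucocroton havanensis, a shrub of the spurge family endemic to Cuba, is a nickel hyperaccumulator, a plant that stores nickel in its shoot at concentrations that would harm most species. In such plants nickel is taken up by the root, moved through the xylem bound to small organic ligands and stored mainly in vacuoles of leaf cells. Membrane transporters of the IREG (ferroportin) family, which carry divalent metals out of the cytosol, have been linked to this storage in several hyperaccumulators. The files pair no contig with a gene name or a sequence, so no role could be assigned to a member, and the organ labels could not be checked against marker genes.

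Of the 65936 contigs, 12620 had a mean of at least 10 CPM over the shoot libraries, and these are called abundant below. Among the abundant contigs, 134 (1.06%) were at least 4-fold higher in shoot with nickel than in shoot without, and 77 (0.61%) were at least 4-fold lower. Root preference without nickel, at least 4 and under 100-fold, was held by 472 of them (3.74%), and 457 of these had a steady root level. The 33 members are the part of these 457 that was also 4-fold higher in shoot with nickel, 7.22% of them. A shoot ratio of 4 or more was found for 53 of 10638 steady abundant contigs whose organs lay within 4-fold without nickel (0.498%). It was found for 18 of 1263 steady contigs that were at least 4-fold higher in shoot than in root without nickel (1.43%). These shares are not independent of the grouping, since shoot without nickel is the denominator of the shoot ratio and also enters the organ ratio that sorts the contigs. A contig low in that library alone meets both conditions more readily.

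**Figure D1:**
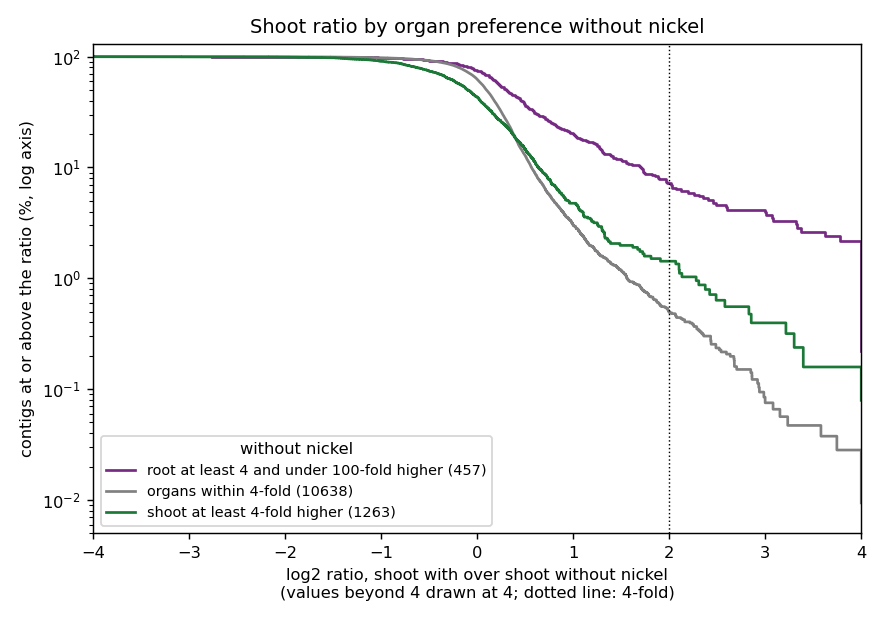
Share of steady abundant contigs (y axis, percent, log axis) at or above each log2 ratio of shoot with nickel to shoot without nickel (x axis), with 1 line for each organ preference without nickel. At the dotted 4-fold line the shares were 7.22% for the 457 root-preferring contigs, 0.498% for the 10638 contigs within 4-fold between organs and 1.43% for the 1263 shoot-preferring contigs.

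Of the 457 root-preferring contigs, 92 (20.1%) were at least 2-fold higher in shoot with nickel than without, the 33 members and 59 others, whereas 10 (2.19%) were at least 2-fold lower and 4 (0.875%) at least 4-fold lower. Of all abundant contigs, 4.15% were at least 2-fold higher and 3.3% at least 2-fold lower. Low levels in shoot without nickel define the root-preferring contigs, so nothing is read from this contrast. The 424 that did not reach 4-fold had a median log2 ratio of 0.25 between shoot with and without nickel, and the 12620 abundant contigs one of 0.09. The lean of the 424 turned with the scaling, to a median of -0.0087 by TMM and -0.13 by DESeq2 size factors. The rule was also applied with the shoot libraries exchanged, so that shoot with nickel had to be low against shoot without nickel and against root without nickel, and 24 contigs met it. Their median was 5.57 CPM in shoot with nickel, 31.2 CPM in shoot without nickel, 91.7 CPM in root with nickel and 86.9 CPM in root without nickel.

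The members' levels ran over a wide range. In shoot with nickel they lay between 17.3 and 505 CPM with a median of 36.6 CPM, and in shoot without nickel between 0.059 and 35.6 CPM with a median of 4.55 CPM. In root with nickel they lay between 1.69 and 207 CPM (median 40.1 CPM), and in root without nickel between 2.52 and 246 CPM (median 42.3 CPM). Shoot without nickel was the lowest library for every member, as the rule requires. The conditions on mean level and shoot ratio together admit no contig under 16.1 CPM in shoot with nickel. Rank of abundance within a library needs no scaling between libraries. The members' median rank was 5137 in shoot with nickel, 16942 in shoot without nickel, 5244 in root with nickel and 4926 in root without nickel. Each median was taken within its library, so these values belong to different members. The median in shoot with nickel was close to those in root, but single members lay far apart. Lhav_v2_contig_1987 stood at 2314 in shoot with nickel and 25083 in root with nickel, and Lhav_v2_contig_8213 at 7581 and 624.

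**Figure D2:**
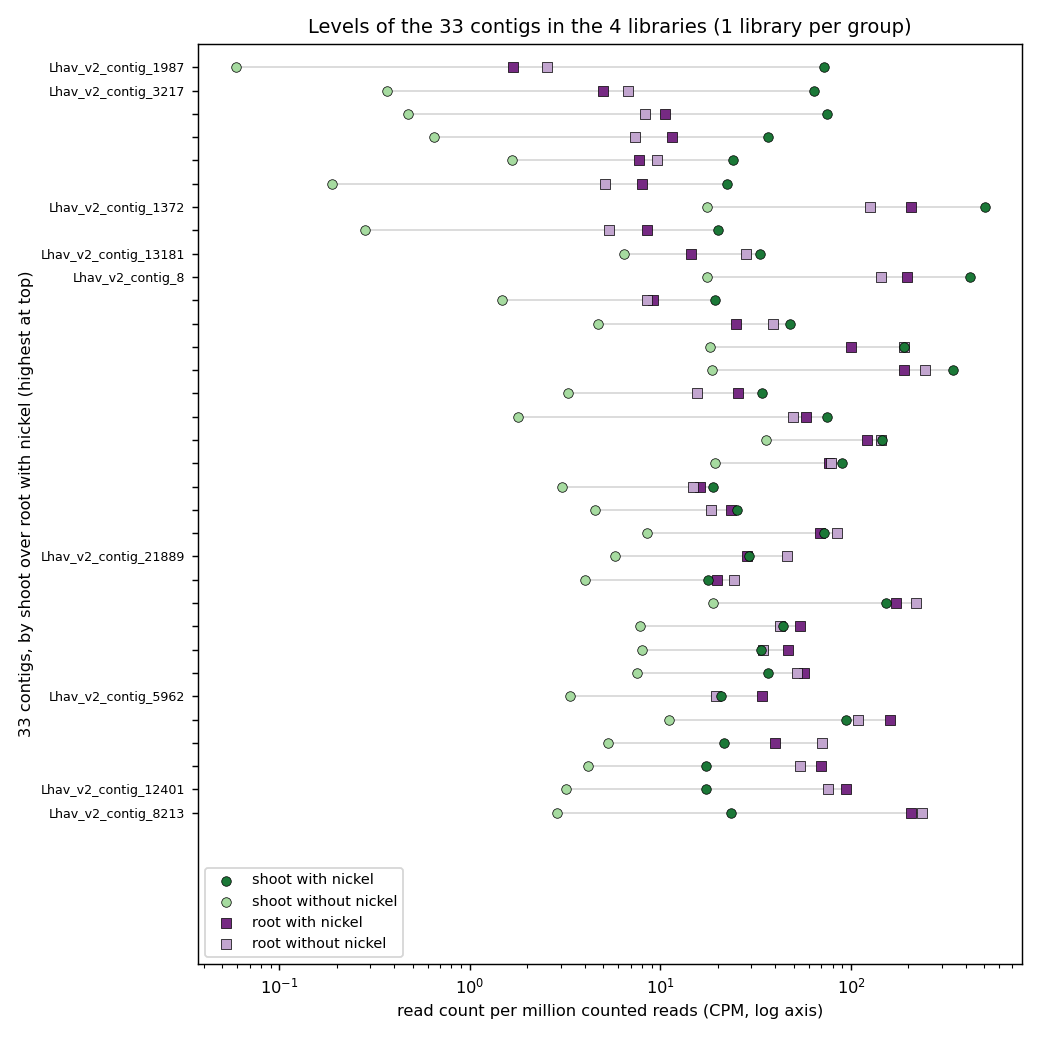
Level of each of the 33 contigs (rows, ordered by the ratio of shoot with nickel to root with nickel) in the 4 libraries, in CPM on a log axis, with 1 point for each library and a grey line over the range. Contigs with names are those described singly. Shoot without nickel is the leftmost point in every row, and shoot with nickel moves from the right of both root points in the upper rows to their left in the lowest rows.

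Together the members made up 0.284% of all counts in shoot with nickel (95% Wilson interval 0.283% to 0.285%) and 0.0246% in shoot without nickel (0.0243% to 0.0250%). Their share was 0.217% in root with nickel (0.216% to 0.218%) and 0.222% in root without nickel (0.220% to 0.223%). Their summed share was thus 11.5-fold higher in shoot with nickel than in shoot without, and 1.31-fold higher in shoot with nickel than in root with nickel. The 3 contigs most abundant in shoot with nickel held 44.6% of the members' reads there. Without these 3, the shares were 0.157% in shoot with nickel, 0.0192% in shoot without nickel, 0.157% in root with nickel and 0.170% in root without nickel. The excess of the summed share in shoot over root with nickel was thus absent without these 3. They were picked for their level in shoot with nickel, which favours that outcome, so nothing more is read from it.

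The median log2 ratio of shoot with nickel to shoot without nickel was 3.07 over the members, an 8.38-fold difference, and the ratios ran from 4.04-fold to 453-fold. A difference of 10-fold or more was shown by 14 members, compared with 37 of all abundant contigs (0.293%). One of 50-fold or more was shown by 5 members, compared with 16 of all abundant contigs (0.127%). At the low end, 12 members lay under 6-fold. The rule selected on this ratio, so nothing is read from these counts.

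Root preference without nickel had a median of 8.15-fold over the members and ran from 4.01-fold to 79.6-fold. The ratio of shoot to root with nickel follows from this value, the shoot ratio and the root ratio. Its median log2 value was 0.27 with nickel, compared with -3.03 without nickel for the same organ ratio. The value with nickel depended on the choice of contigs, at 0.97 for the contigs chosen after TMM scaling and 0.96 after DESeq2 scaling. With a minimum mean of 1 CPM it turned to -0.29, and 90 of 216 contigs were then higher in shoot than in root with nickel. Over the 12620 abundant contigs the medians were -0.02 with nickel and -0.08 without. With nickel, 22 of the 33 members were higher in shoot than in root, as were 49% of the abundant contigs. Of the 424 root-preferring contigs that did not reach the 4-fold difference in shoot, 2 were higher in shoot than in root with nickel. The rule allows this only where root is lower with nickel, so nothing is read from the contrast.

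Sorted by that ratio, the members fell into a small group reversed toward shoot, a larger group near equality and a few that still preferred root. At least 4-fold higher in shoot than in root with nickel were 3 members (10.9% of abundant contigs), and 2-fold to under 4-fold higher were 8 (10.8%). Within 2-fold lay 19 (62.7%). None was 2-fold to under 4-fold lower in shoot than in root (12.6%), and 3 were at least 4-fold lower (3%). In the order of these classes the members' own shares were 9.09%, 24.2%, 57.6%, 0% and 9.09%, and since the rule used the same libraries nothing is read from their distance to the background. Of the 424 contigs that met the rule but for the difference in shoot, 20 lay within 2-fold with nickel. Another 205 were 2-fold to under 4-fold lower in shoot than in root, and 199 were at least 4-fold lower. The limits of the rule set much of this too.

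**Figure D3:**
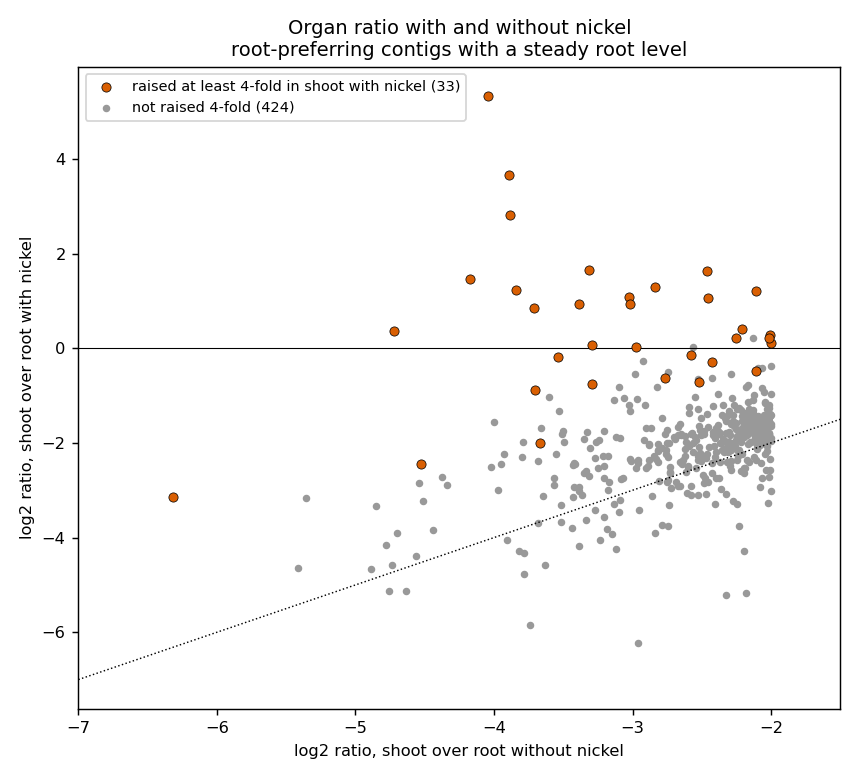
The log2 ratio of shoot to root with nickel (y axis) plotted on that without nickel (x axis) for 457 root-preferring abundant contigs with a steady root level, with 1 point for each contig. On the dotted line the ratios are equal, and on the solid line shoot and root with nickel are equal. The 33 members all lie above the dotted line, as the rule requires, and 22 of them lie above the solid line. Of the other 424, 2 lie above the solid line, where the rule admits only those lower in root with nickel.

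The strongest reversals belonged to contigs of low level in root. Lhav_v2_contig_1987 had 7055 reads (71.9 CPM) in shoot with nickel, 5 reads (0.059 CPM) in shoot without nickel, 94 reads (1.69 CPM) in root with nickel and 151 reads (2.52 CPM) in root without nickel. Shoot with nickel was thus the single high library, and shoot without nickel was close to zero. Its ratio of shoot with to shoot without nickel was 453-fold with 0.1 CPM added. The plain count ratio was 1221-fold (exact 95% interval 523 to 3762), and with 1 CPM added the ratio was 68.9-fold, so the size of this value rests on the amount added to 5 reads. Against root with nickel, shoot with nickel was 40.3-fold higher, whereas without nickel shoot was 16.5-fold lower than root.

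Lhav_v2_contig_3217 showed the same order at 64.0 CPM in shoot with nickel, 0.365 CPM in shoot without nickel, 4.99 CPM in root with nickel and 6.79 CPM in root without nickel. It was 138-fold higher in shoot with than without nickel (count ratio 175, exact 95% interval 123 to 258), or 47.6-fold with 1 CPM added, and 12.6-fold higher in shoot than in root with nickel. These contigs, Lhav_v2_contig_1987 and Lhav_v2_contig_3217, also had the highest lower limits of the shoot interval among the members. The third contig of this kind had 74.5 CPM in shoot with nickel, 0.471 CPM in shoot without nickel, 10.6 CPM in root with nickel and 8.34 CPM in root without nickel. It was 131-fold higher in shoot with nickel than without. In all 3, both root levels were under 12 CPM, and a contig so low in root could enter the set only if shoot with nickel exceeded root, because of the minimum of 16.1 CPM.

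In all, 8 members had under 12 CPM in both root libraries, and each of these was at least 2-fold higher in shoot than in root with nickel. Reads in shoot without nickel numbered under 100 for 6 members, where the counting error of the denominator is largest. With those left out, a restriction added after the values were seen, 27 members remained and 16 of them were higher in shoot than in root with nickel. The number at least 2-fold higher in shoot was then 5 in place of 11.

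The most abundant members were Lhav_v2_contig_1372 and Lhav_v2_contig_8, and their levels were much alike. Lhav_v2_contig_1372 had 505 CPM in shoot with nickel, 17.5 CPM in shoot without nickel, 206 CPM in root with nickel and 126 CPM in root without nickel. Lhav_v2_contig_8 had 420 CPM in shoot with nickel, 17.5 CPM in shoot without nickel, 197 CPM in root with nickel and 144 CPM in root without nickel. Each was highest in shoot with nickel and higher in root with than without nickel. The shoot ratio was 28.7-fold (interval of the count ratio 27.4 to 30.4) for Lhav_v2_contig_1372 and 23.8-fold (22.8 to 25.3) for Lhav_v2_contig_8. Shoot stood above root with nickel by 2.45-fold and 2.13-fold in the same order, and below root without nickel by 7.14-fold and 8.15-fold. By rank, Lhav_v2_contig_1372 stood 179th in shoot with nickel and 8947th in shoot without nickel. The levels of this pair differed by no more than 1.20-fold in any library, the closest match among all pairs of members. Whether they are copies or parts of 1 transcript between which reads could be divided cannot be seen without sequences. The third most abundant member had 341 CPM in shoot with nickel, 18.7 CPM in shoot without nickel, 190 CPM in root with nickel and 246 CPM in root without nickel.

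The 8 members between 2 and 4-fold higher in shoot than in root with nickel include that pair. Across these 8, shoot with nickel ran from 19.3 to 505 CPM, shoot without nickel from 0.188 to 17.5 CPM, root with nickel from 7.69 to 206 CPM and root without nickel from 5.10 to 144 CPM. Shoot with nickel exceeded both root libraries in all 8. Their root levels were higher with than without nickel in 6 and lower in 2. The lower ones included Lhav_v2_contig_13181, with the lowest root ratio of all members, at 33.3 CPM in shoot with nickel, 6.43 CPM in shoot without nickel, 14.4 CPM in root with nickel and 28.1 CPM in root without nickel. Its root ratio was 0.51 (count-ratio interval 0.47 to 0.56), just inside the limit of 0.5, and was 0.46 by TMM and by DESeq2 size factors, outside it. Shoot with nickel was thus 2.31-fold above root with nickel, but close to the 28.1 CPM of root without nickel.

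In the largest group, 19 members, shoot with nickel lay within 2-fold of root with nickel, at ratios from 0.54 to 1.92. The same 33 contigs kept 17 in this class by TMM and 18 by DESeq2 size factors. Among contigs chosen anew it was not the largest class. By TMM 10 lay within 2-fold and 11 at least 2-fold higher in shoot, and by DESeq2 size factors 7 and 9. The medians of the 19 members were 44.1 CPM in shoot with nickel, 7.56 CPM in shoot without nickel, 53.8 CPM in root with nickel and 49.5 CPM in root without nickel. Shoot with nickel was above root with nickel in 11 of them and below it in 8. Lhav_v2_contig_21889 lay closest to equality, at 29.0 CPM in shoot with nickel, 5.77 CPM in shoot without nickel, 28.4 CPM in root with nickel and 46.0 CPM in root without nickel. Its ratio of shoot to root with nickel was 1.02 (count-ratio interval 0.96 to 1.09), which does not differ from 1 beyond counting error, although TMM scaling moved it to 1.11, while shoot was 7.86-fold lower than root without nickel. The member with the highest root ratio, Lhav_v2_contig_5962, was also of this group, with 20.7 CPM in shoot with nickel, 3.33 CPM in shoot without nickel, 34.1 CPM in root with nickel and 19.6 CPM in root without nickel. Its shoot ratio was 6.05-fold, and its root ratio was 1.74 (count-ratio interval 1.62 to 1.87). In this contig shoot with nickel matched root without nickel and stayed 1.65-fold below root with nickel.

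For 17 of these 19, shoot with nickel and both root libraries lay within 2-fold of one another, with shoot without nickel below all 3. The class limits leave no other member able to show this closeness. It was thus shown by 17 of all 33 members, and by 56.3% of abundant contigs. Nothing is read from this, since the rule used the same libraries. Over the 13702 contigs that averaged 10 CPM or more across the 4 libraries, a library was counted as the single low one where it stood at least 4-fold below 3 others that lay within 2-fold. It held for 13 contigs in shoot with nickel, 17 in shoot without nickel, 0 in root with nickel and 0 in root without nickel. Of the 17, 15 were members. A contig low in shoot without nickel alone nearly meets the rule by that pattern, so nothing is read from this overlap. A single high library by the same measure was found for 7 contigs in shoot with nickel, 3 in shoot without nickel, 1 in root with nickel and 0 in root without nickel. The part that library origin has in any of these counts was not tested. These limits were chosen after the values were seen.

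With nickel, 11 members were lower in shoot than in root, each with a counting interval of that ratio below 1. A root preference of at least 2-fold was kept by 3 of them. Lhav_v2_contig_8213 had 23.5 CPM in shoot with nickel, 2.86 CPM in shoot without nickel, 207 CPM in root with nickel and 236 CPM in root without nickel. It was 7.97-fold higher in shoot with than without nickel (count-ratio interval 7.20 to 9.42). Shoot still stood 8.78-fold below root with nickel and 79.6-fold below it without nickel, the widest root preference of the set. Lhav_v2_contig_12401 had 17.3 CPM in shoot with nickel, 3.19 CPM in shoot without nickel, 94.3 CPM in root with nickel and 75.8 CPM in root without nickel. It was 5.29-fold higher in shoot with than without nickel, and shoot stood 5.42-fold below root with nickel and 23.1-fold below it without nickel. The third had 17.3 CPM in shoot with nickel, 4.15 CPM in shoot without nickel, 69.3 CPM in root with nickel and 53.8 CPM in root without nickel. With nickel its shoot level stood below root by almost exactly the 4-fold that bounds the class. The contigs at 17.3 CPM lay near the lowest level that the rule admits in shoot with nickel, and Lhav_v2_contig_8213 lay higher.

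On a log scale, the distance from shoot without nickel to the geometric mean of the root libraries gives a second view of the loss of root preference. Shoot with nickel covered a median of 112% of that distance over the 33 members, from 48.1% in Lhav_v2_contig_8213 to 234% in Lhav_v2_contig_1987. It covered the whole distance or more in 20 members. For the 424 contigs that met the rule but for the difference in shoot, the median was 11.6% and 0 covered the whole distance. With a shoot ratio under 4, they could cover it only where root was lower with nickel. The rule thus sets much of this contrast, and nothing is read from it. Shoot with nickel lay above both root libraries in 19 members (46.3% of abundant contigs), between them in 5 and below both in 9 (46.9% of abundant contigs).

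**Figure D4:**
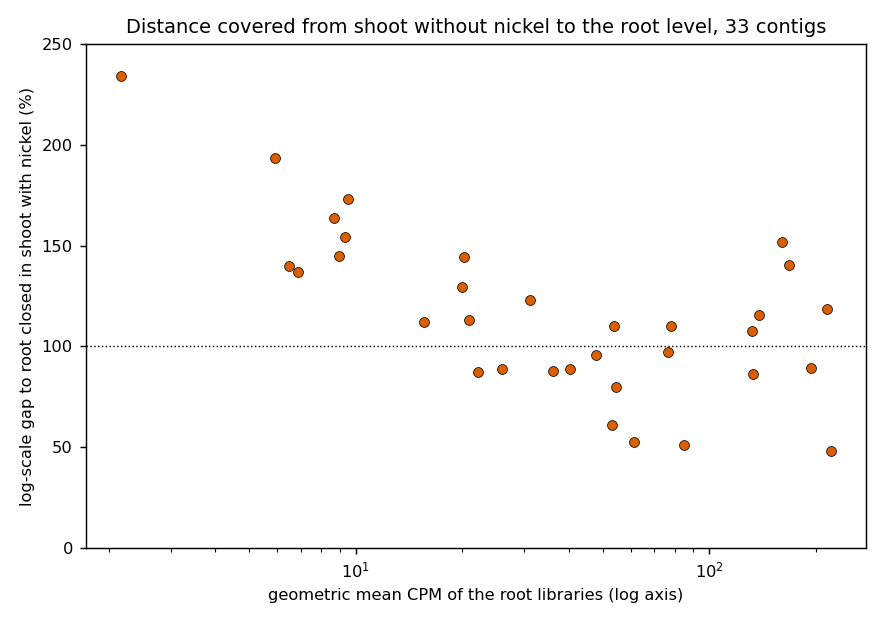
Share of the log-scale distance from shoot without nickel to the root level that shoot with nickel covered (y axis, percent), plotted on the geometric mean CPM of the root libraries (x axis, log axis), with 1 point for each of the 33 contigs. The dotted line at 100% marks the root level, which 20 contigs reached or passed. The 8 contigs under 12 CPM in both root libraries all lie above it, as the minimum level in shoot requires.

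In root, the members differed little between nickel groups, as selected. Their ratios of root with to root without nickel ran from 0.51 to 1.74 with a median log2 ratio of 0.12, and 18 were above 1 and 15 below it. Of the abundant contigs, 47.6% were below 1. The median log2 root ratio of abundant contigs was 0.01 by total counts, -0.15 by TMM and -0.14 by DESeq2 size factors. Members just above 1 can fall below it under these scalings, so the members' split and median belong to total counts. The 424 contigs without the difference in shoot had a median log2 root ratio of -0.18, and 303 of them were below 1. Root without nickel had to be high for root preference and is the denominator of this ratio, so nothing is read from it.

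The 101 other abundant contigs that were 4-fold higher in shoot with than without nickel did not meet the conditions on root. Their median shoot ratio was 5.81-fold, compared with 8.38-fold for the members, and their levels in root were lower, with a median of 6.90 CPM in root with nickel and 8.43 CPM in root without nickel. With nickel, 60 of these 101 were at least 4-fold higher in shoot than in root, and 19 lay within 2-fold. The conditions on root set much of this contrast, and it was not tested.

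Some contigs lay just inside or outside the limits. Among root-preferring contigs, the shoot ratio was 4.04 and 4.09 for the members nearest the limit of 4, and 3.93 and 3.91 for the contigs just outside. Root preference without nickel was 4.01 and 4.02 just inside and 3.87 and 3.78 just outside. At its upper limit it was 79.6 inside and 120 outside, and 4 contigs that met the conditions on mean level and shoot ratio were left out for a root preference of 100 or more. The mean shoot level was 10.1 and 10.3 CPM just inside and 9.84 and 9.65 CPM just outside. The root ratio was 0.51 and 0.52 just inside the lower limit and 0.42 just outside. At the upper limit it was 1.74 inside and 2.24 outside, and 7 contigs that met the other conditions were left out for their root ratio.

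No pair of members had adjacent contig numbers, which the rule did not use. The members ran from number 8 to number 21889 with a median of 5738, compared with 8152.5 for abundant contigs and 32968.5 for all contigs. Of the abundant contigs, 95.4% were numbered at or below 21889. The closest members were 12 numbers apart. Of the 66 contigs numbered just before or after a member, 45 were abundant, compared with 19.1% of all contigs, whose numbers run higher. Of these 45, 1 was at least 4-fold higher in shoot with nickel (1.06% of abundant contigs) and 3 met the condition on root preference (3.74%). Nothing is read from these counts or from the lack of adjacent members. The sources used here do not say what the order of numbers stands for.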

How the data were processed

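RNA was measured in 4 libraries, 1 per combination of organ and nickel. The deposited values are whole-number read counts per contig without normalization. Per the labels' protocols, the libraries were stranded and polyA-selected (Illumina TruSeq). The aligner, counting program, assembly and filters, and whether reads or pairs were counted, were not given in the sources used here, so their effect on the values was not tested.

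Counts were divided by the library total and multiplied by 1000000 (CPM). The members, comparison sets and named contigs were chosen with earlier results of these data known. Named contigs were the 2 highest and the 2 lowest in the ratio of shoot to root with nickel, and the 2 with the highest lower limit of the shoot ratio. To these came the 2 most abundant in shoot with nickel, the contig nearest equality with nickel, and the highest and lowest in root ratio. Count ratios were given exact 95% conditional binomial (Clopper-Pearson) intervals (scipy 1.17.1). No test was made, since each group had 1 library. TMM (edgeR 4.0.16) and DESeq2 1.42.0 size factors were alternatives. The calculations were tested on simulated data. No pairing was possible.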

Additional observations from a re-analysis of the deposited data

Results flagged for a closer look

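By total counts, the nickel difference had opposite directions in the organs for 15 of the 33 members, which were higher with nickel in shoot and lower with nickel in root. These are 45.5% of the members, close to the 47.6% of abundant contigs that were lower in root with nickel. For 14 of the 15, the exact 95% counting interval of the root ratio lay below 1. The difference between organs was not tested, since each group had 1 library. The shoot ratios of these 15 ran from 4.04-fold to 453-fold and their root ratios from 0.51 to 0.97, of which 7 were under 0.75. The rule fixed the direction in shoot and kept the root ratio above 0.5. The number of 15 depends on the scaling, since TMM and DESeq2 size factors lower the root ratios and members just above 1 can then fall below it.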

How the results depend on the processing

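Counts within 1.5 times the reported value, and medians within 1.5-fold of it, are not listed. They make up 56 of 90 recalculations of the number of contigs (33), the contigs at least 2-fold higher in shoot than root with nickel (11), within 2-fold (19) and at least 2-fold lower (3), and the median log2 ratios of shoot with to without nickel (3.07) and of shoot to root with nickel (0.27). TMM gave 23 contigs (22 of the 33), of which 10 lay within 2-fold, and an organ median of 0.97. DESeq2 size factors gave 18 (17 of the 33), 7 within 2-fold, and medians of 3.79 and 0.96. Adding 1 CPM gave 21, 11 of them within 2-fold. A mean of 1 CPM gave 216, with 42 higher, 118 within 2-fold and 56 lower, and turned the organ median to -0.29. A mean of 20 CPM gave 17, with 5, 12 and 0. Thresholds of 3-fold gave 67, with 17, 38 and 12, and a shoot median of 2.31. Thresholds of 8-fold gave 14, with 7, 7 and 0, and medians of 4.95 and 1.02. With no upper limit on root preference 6 were lower. Without limits on the root ratio 17 were higher, and with limits of 0.67 and 1.5 there were 6. Lower limits above 4 from halved counts left 12 within 2-fold and an organ median of 0.89. Added after the data were seen, at least 100 reads in shoot without nickel left 5 higher.

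For the same 33 contigs, TMM kept 27 and DESeq2 24 at a shoot ratio of 4 or more, with lowest ratios of 3.38 and 3.11, and 22 stayed higher in shoot than root with nickel under each. The median log2 shoot ratio of abundant contigs was 0.09 by total counts, -0.17 by TMM and -0.29 by DESeq2. In 135 recalculations of the named contigs no direction beyond counting error turned, but 46 values moved by more than counting error, 21 by TMM, 16 by DESeq2 and 9 with 1 CPM added. The shoot ratios of Lhav_v2_contig_21889 and Lhav_v2_contig_13181 were 3.83 and 3.95 by DESeq2, under the 4-fold limit. No paired analysis was possible because each group held 1 library, and leaving out a replicate would remove a group. Depth limits the shoot ratio chiefly for the 6 contigs with under 100 reads in shoot without nickel, and spread between plantlets was not measured.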
